A study of Mus musculus with 32 samples.

Results

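Fat cells express a small group of genes at levels that other cells rarely reach, and 10 of them are described here in E0771 mouse mammary tumours with and without the collagen receptor Ddr1: Adipoq, Lep, Retn, Fabp4, Plin1, Plin4, Car3, Cidec, Pparg and Cfd. They were chosen by symbol, as rows present in all 4 deposited tables, and all 10 were found in each table among 27777 distinct symbols. RNA was sequenced from 32 libraries in 8 groups. In culture there were 3 Ddr1 wild-type libraries (the parental line, an empty-vector line and a control line) and 2 knockout libraries (lines 3-6 and 3-7). Tumours in Rag1-/- mice, which lack mature T and B cells, gave 5 wild-type and 5 knockout libraries. Per the design text, tumours were then moved from Rag1-/- into C57BL/6 hosts, and at day 4 there were 4 wild-type and 5 knockout libraries. At day 6 in C57BL/6 hosts there were 4 libraries with IgG treatment and 4 with an antibody to the extracellular domain of human DDR1 (hDDR1 ECD), and the Ddr1 genotype of these cells is not in the labels. The labels give no age of the mice and do not say whether libraries came from separate animals. The p-values below therefore rest on the scatter of these libraries, which may be technical and need not be that between animals. The knockout libraries of the tumours carry no clone name in the labels.

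An adipocyte stores triglyceride in a single large droplet and releases fatty acids and hormones. PPARG, a nuclear receptor that works with RXR, and the C/EBP factors switch on most of the genes of the mature cell, among them those for droplet coat proteins, fatty acid carriers and adipokines. The mouse mammary gland is embedded in a fat pad, so whole tumours of this site can carry fat cells of the host beside tumour cells. The counts here are of whole tissue, in which fewer adipocytes and less RNA per adipocyte cannot be told apart.

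The promoters of members that move together across tumours are shown first, because the text below turns on that shared movement. RefSeq sequences on GRCm38.p6 from 250 bases before to 50 bases after a start gave 11 promoters for 8 members (Adipoq, Lep, Retn, Plin1, Plin4, Cidec, Pparg and Cfd). Capitals mark a match to the C/EBP word TTGCNNAA on either strand, and every sequence reads 5′ to 3′ on the strand of its gene. Lep, Plin1 and one of the Cidec starts hold the word, and Adipoq, the gene taken as the measure of fat below, does not.
Lep (chr6:29059971-29060270, plus strand): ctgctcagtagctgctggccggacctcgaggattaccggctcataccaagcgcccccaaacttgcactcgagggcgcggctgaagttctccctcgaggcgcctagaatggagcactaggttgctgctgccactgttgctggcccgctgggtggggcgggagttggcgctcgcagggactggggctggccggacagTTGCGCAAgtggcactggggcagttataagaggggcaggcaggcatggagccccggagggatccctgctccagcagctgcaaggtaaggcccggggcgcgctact
Plin1 (chr7:79732727-79733026, minus strand): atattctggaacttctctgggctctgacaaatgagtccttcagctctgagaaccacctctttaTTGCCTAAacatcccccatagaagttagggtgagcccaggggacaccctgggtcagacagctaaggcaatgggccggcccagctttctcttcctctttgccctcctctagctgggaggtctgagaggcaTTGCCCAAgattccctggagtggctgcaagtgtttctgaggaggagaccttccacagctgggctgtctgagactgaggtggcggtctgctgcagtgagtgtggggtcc
Cidec (chr6:113434715-113435014, minus strand): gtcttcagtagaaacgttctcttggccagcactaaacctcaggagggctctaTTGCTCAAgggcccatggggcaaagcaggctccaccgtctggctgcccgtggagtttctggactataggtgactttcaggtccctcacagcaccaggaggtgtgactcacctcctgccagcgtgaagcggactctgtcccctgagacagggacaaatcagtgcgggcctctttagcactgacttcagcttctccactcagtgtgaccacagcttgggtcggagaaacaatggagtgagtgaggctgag
Adipoq (chr16:23146286-23146585, plus strand): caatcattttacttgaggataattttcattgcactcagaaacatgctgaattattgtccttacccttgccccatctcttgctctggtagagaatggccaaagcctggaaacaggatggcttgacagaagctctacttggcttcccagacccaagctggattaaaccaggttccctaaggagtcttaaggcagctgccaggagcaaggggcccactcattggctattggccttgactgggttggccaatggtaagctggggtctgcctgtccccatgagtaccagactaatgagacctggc
The C/EBP word was present in 4 of the 11 promoters (1 each of Lep, Plin1, Cidec and Pparg) and in 10.8% of all 32851 RefSeq promoters of this length. A direct repeat of AGGNCA with a spacer of 1 base, a spelling of the PPARG and RXR site, was in none of the 11 windows and in 0.381% of all promoters. TATAAA was in 1 of the 11, a Pparg start, against 13.6% of all. These are matches of letters in short windows, counted on both strands.

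Library totals, recovered from the normalized counts as whole reads, had their lowest and highest values at 29270919 and 37425032 (culture), 18967300 and 25516204 (Rag1-/- tumours), 20148955 and 28600639 (day 4), and 20220028 and 39732635 (day 6). Ddr1 stood at 5854 to 7187 normalized counts in wild-type and 665 to 914 in knockout cultures, 3645 to 4057 against 686 to 886 in Rag1-/- hosts, and 3091 to 4195 against 615 to 1181 at day 4, with no overlap. At day 6 it stood at 459 to 658 with IgG and 563 to 852 with the antibody, in a table that was normalized separately. Of the luminal markers of a mammary carcinoma line, Krt8 stood at 5616 to 8121 in culture while Krt18 was at 0 to 5.86 and Epcam at 22.2 to 116. Skeletal muscle markers (the sum of Acta1, Ckm, Mylpf, Myh4, Tnnt3, Tnnc2, Pygm and Mb) set several libraries apart: 31141 in day 4 wild-type replicate 3 and 61281 in day 4 knockout replicate 5, and 4504 to 200720 with IgG at day 6 against 199 to 6520 with the antibody. The day 4 and day 6 group comparisons were also fitted without the 2 libraries highest in these markers, and values for some members are given below. The correlations were not repeated in that way.

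In culture the fat cell program was near the floor of detection. Lep and Retn had 0 reads in all 5 libraries, and a count of 0 allows up to 3 reads, which in these libraries is 0.080 to 0.102 RPM (reads scaled to the library total). Adipoq had 1 read in the parental line and 0 in the other 4 libraries. Intervals and floors of this kind cover counting error only. Fabp4, a small cytosolic fatty acid carrier that macrophages and endothelium also express, was the exception and made up 95.8% to 99.6% of the summed reads of the 10 genes. It stood at 1191, 227 and 149 normalized counts in the parental, empty-vector and control lines and at 245 and 413 in the knockout lines. The parental line was the high one, and the groups overlapped. Pparg had 31 reads in the parental line, 1 in knockout line 3-7 and 0 in the other 3 libraries, so that line was again the high one. Fabp4 alone reached a mean of 10 and was tested, and its log2 difference was −0.11 (SE 0.81, adjusted p = 0.960 in limma), where 0.327% of 11911 genes were called at an adjusted p under 0.05. The direction of that change turned to 0.79 without the parental line and to 0.27 without knockout line 3-6.

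In tumours most of the 10 genes differed widely between libraries of one group, with Pparg in Rag1-/- hosts (69.7 to 91.1 normalized counts) and Fabp4 under IgG at day 6 (611 to 1232) among the exceptions. The summed level of the 10 genes was 4.57 to 36.2 RPM in culture. It was 12.6 to 149 RPM in tumours of Rag1-/- mice, 40.0 to 7049 RPM in day 4 tumours and 45.7 to 902 RPM in day 6 tumours. RPM divides reads by each library's total and does not rest on the authors' size factors. Day 4 knockout replicates 2 and 4 (7049 and 4205 RPM) stood far above the next library, knockout replicate 1 (685 RPM), and above wild-type replicate 1 (607 RPM). In Rag1-/- hosts knockout replicate 2 was highest, and the other 4 knockout libraries lay between 14.5 and 26.2 RPM, within the lower part of the wild-type range of 12.6 to 93.5 RPM. At day 6 antibody replicates 2 and 4 (902 and 891 RPM) were highest, followed by IgG replicate 2 (802 RPM), in which Car3 alone made up 87.7% of the sum.

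**Figure D1:**
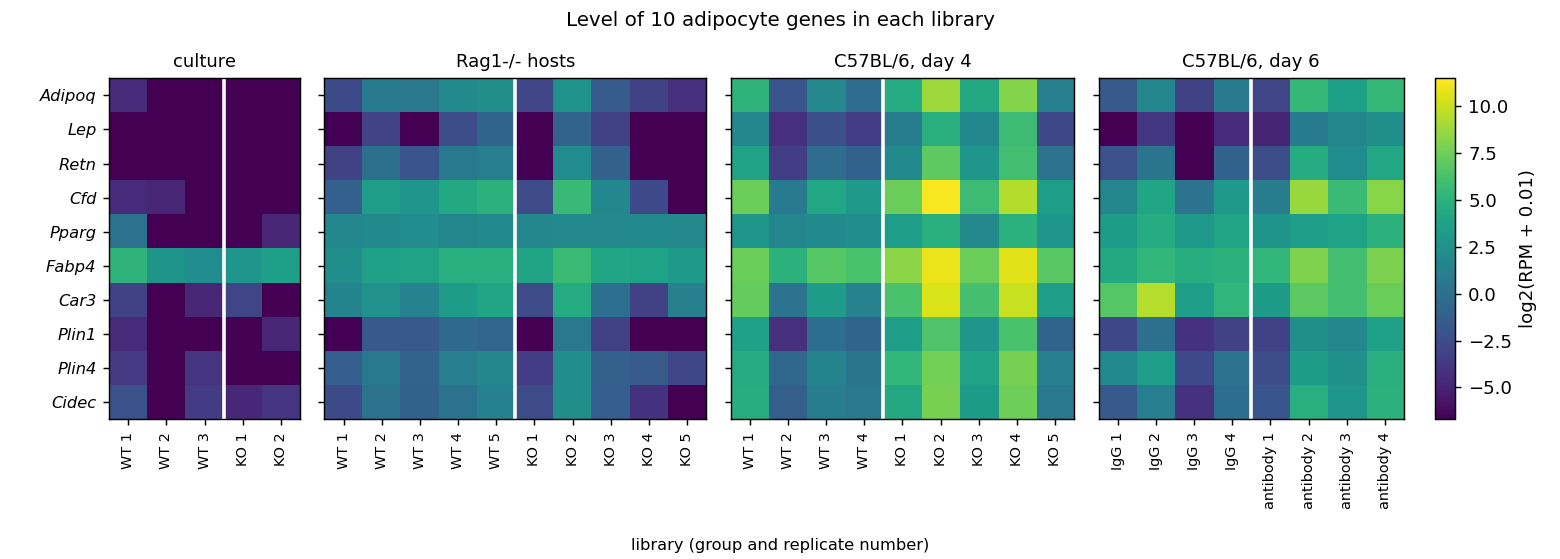
Heat map of the level of each of the 10 genes (rows) in each library (columns), as log2(RPM + 0.01), in 4 panels for culture, Rag1-/- hosts, day 4 and day 6, with a white line between the groups of a panel. Most rows of a tumour column brighten or darken together, from a sum of 12.6 RPM to 7049 RPM, while culture shows little beside Fabp4. Pparg is nearly level in Rag1-/- hosts (3.20 to 4.22 RPM), and Car3 stands apart in IgG replicate 2 at day 6.

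The adipokines, hormones and secreted products of fat, were described first. Adipoq encodes adiponectin, which is made almost only by adipocytes. In Rag1-/- hosts it stood at 3.26, 36.1, 33.0, 89.0 and 103 normalized counts in wild-type replicates 1 to 5 and at 2.65, 134, 7.21, 2.09 and 0.90 in knockout replicates 1 to 5. Knockout replicate 2 exceeded every wild-type library, and the other 4 knockout libraries lay below 4 of the 5 wild-type ones. On day 4 Adipoq had values of 839, 6.18, 86.5 and 20.0 in wild-type and at 514, 10229, 468, 6271 and 54.4 in knockout tumours. The values of 10229 and 6271 lay above all wild-type libraries, and the remaining 3 knockout libraries lay below the wild-type maximum. On day 6 its values were 9.28, 93.5, 2.94 and 47.5 under IgG and 3.76, 1277, 340 and 1299 under the antibody. Antibody replicates 2 to 4 lay above all IgG libraries, and replicate 1 lay among the lowest.

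Lep encodes leptin, the hormone that signals the size of fat stores to the brain. It was the sparsest member, at 0 to 11.3 normalized counts in Rag1-/- hosts with 0 reads in 5 of 10 libraries. On day 4 wild-type tumours had 75.6, 1.03, 4.81 and 2.0 and knockout tumours 41.1, 566, 82.4, 1285 and 3.33, so knockout replicates 2, 3 and 4 lay above all wild-type libraries. On day 6 its values were 0, 1.99, 0 and 0.99 under IgG and 0.75, 49.1, 91.3 and 151 under the antibody, where again replicates 2 to 4 lay above the IgG range. Retn, the gene for resistin, which in mice is made by adipocytes, reached 87.8 in Rag1-/- tumours, 2792 on day 4 and 720 on day 6, with lowest values of 0, 2.06 and 0. Cfd encodes adipsin (complement factor D), a protease of the alternative complement pathway that mouse fat secretes. It had the widest absolute range of the 4, from 0 to 1024 in Rag1-/- tumours, from 44.3 to 55661 on day 4 and from 33.8 to 12687 on day 6.

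Pparg, the regulator, behaved apart from the other members. In Rag1-/- hosts it stood between 69.7 and 91.1 normalized counts in all 10 libraries, a 1.31-fold range, while Adipoq spanned 149-fold in the same libraries. At day 4 it ranged from 76.3 to 179 in wild-type and stood at 243, 648, 87.0, 682 and 170 in knockout tumours, highest in the same 2 knockout libraries that were highest in Adipoq. On day 6 the values were 300.2, 717, 246 and 473 under IgG and 200.2, 325, 416 and 968 under the antibody. The groups overlapped widely there, and IgG replicate 2 was the second highest of the 8. Macrophages also express Pparg, and the summed macrophage markers (Adgre1, Cd68, Csf1r, Mrc1, Cd14, C1qa, C1qb and C1qc) lay at 14970 to 22630 (Rag1-/- tumours), 23208 to 71332 (day 4) and 62573 to 279576 (day 6). In culture the macrophage sum stood at 519 to 1802. The part of macrophages in the Pparg level was not tested.

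Fabp4 was the member with the highest floor in tumours. Its lowest values were 111 normalized counts in tumours of Rag1-/- mice, 774 on day 4 and 611 on day 6. Its highest values, 43403 and 37261 at day 4, were in knockout replicates 2 and 4, and at day 6 antibody replicates 2 and 4 (7559 and 7304) lay well above the other 6 libraries (611 to 1884). Endothelial markers (the sum of Pecam1, Cdh5, Kdr, Tie1, Emcn, Cldn5, Egfl7 and Esam), of a cell type that also expresses Fabp4, stood at 2804 to 10195 in wild-type and 8224 to 25365 in knockout tumours at day 4, with 0 of the 8 at 0 in any day 4 library. In culture the same sum stood at 1447 to 2018. The part of these markers in the Fabp4 difference was not tested.

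The lipid droplet genes followed the adipokines. Plin1 encodes perilipin 1, which coats the droplet of fat cells and gates lipolysis, Plin4 encodes another perilipin, and Cidec encodes the protein that fuses droplets into larger ones. At day 4 Plin1 stood at 304, 1.03, 21.6 and 13 in wild-type and at 244, 1945, 164, 1774 and 13.3 in knockout tumours. Cidec stood at 576, 10.3, 48.1 and 32.9 against 411, 4831, 217, 4172 and 35.5 and ranked the 9 libraries as Plin1 did. At day 6 Cidec stood at 9.28, 64.7, 1.47 and 26.7 with IgG and at 8.28, 781, 204 and 937 with the antibody, with antibody replicates 2 to 4 above the IgG range. Plin4 had 1 antibody library above the IgG range at day 6, since IgG replicate 2 stood at 321 against 5.27, 310.2, 154 and 780 with the antibody. Plin4 overlaps Hdgfl2 on the opposite strand, and Pparg overlaps Gm44079 likewise. Whether strand was used in counting is not given in the sources used here, so reads in those overlaps are uncertain.

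Per length of exon (RPM per kilobase of the union of annotated exons), the leading member depended on which transcripts set the length. With the exons of all annotated transcripts Cfd was the highest of the 10 in 6 of 10 Rag1-/- libraries, 5 of 9 day 4 libraries and 3 of 8 day 6 libraries, and Fabp4 led in 4, 4 and 2. Car3 led in the remaining 3 at day 6. With the exons of protein-coding transcripts alone, an alternative added after seeing the data, Fabp4 led in 9, 8 and 4, Cfd in 1, 1 and 2 and Car3 in the other 2 at day 6, since the exons of Fabp4 then cover 896 bases and not 4489. On the first basis the median level per kilobase at day 4 was 59.5 for Cfd, 35.7 for Fabp4, 24.4 for Car3, 14.4 for Adipoq, 4.98 for Cidec, 2.42 for Pparg, 2.41 for Retn, 2.41 for Plin4, 1.5 for Plin1 and 0.57 for Lep. The libraries' ranges of every pair of neighbours in this order overlapped, so the order describes the medians and nothing finer. All members lie on GRCm38, with Adipoq at chr16:23146536-23158028, Lep at chr6:29060220-29073877, Retn at chr8:3655770-3660110, Cfd at chr10:79890853-79892655, Pparg at chr6:115360951-115490399 and Car3 at chr3:14863512-14872523 on the plus strand. Fabp4 lies at chr3:10204088-10208576, Plin1 at chr7:79720218-79732903, Plin4 at chr17:56100591-56109803 and Cidec at chr6:113424634-113435760 on the minus strand.

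How strongly the members moved together was measured against Adipoq within each tumour table, on log2(normalized count + 1) after the mean of each group was subtracted. Values were then permuted across both groups, whose spreads can differ (log2 SD of Lep at day 6 0.78 with IgG and 2.91 with the antibody). The permutation p-values are therefore approximate, and "exact" means only that all permutations were used. Of 27 correlations (9 members in 3 tables), 26 had a permutation p under 0.05 after Benjamini-Hochberg adjustment for Pearson's r, and 25 for Spearman's rho. The share of all genes passing the same test against Adipoq was not taken, so counts of members passing here and below lack a background. By another measure, r over 0.9 with the members' mean, the share of all genes was 0.133% (Rag1-/- tumours), 1.2% (day 4) and 1.36% (day 6). At day 4 (n = 9) all 9 passed by both measures, with r from 0.77 (Pparg) to 0.997 (Car3) and rho from 0.73 to 1.0. The exact permutation p for Car3, 2.76e-06 (adjusted p = 7.44e-05), is the smallest that this design can give for r. At day 6 (n = 8) all 9 passed as well, with r from 0.80 (Pparg) to 0.990 (Cidec, exact permutation p = 7.44e-05, adjusted p = 0.000155) and rho from 0.81 to 0.98. In Rag1-/- hosts (n = 10) Plin1 was closest to Adipoq (r = 0.99, permutation p = 3e-05, adjusted p = 9e-05, and rho = 0.96, permutation p = 2e-05, adjusted p = 0.000193), followed by Fabp4 (r = 0.97) and Cfd (r = 0.96). Pparg was the one that did not pass there (r = 0.16, permutation p = 0.659, adjusted p = 0.659, and rho = 0.10, adjusted p = 0.784), and Car3 passed by r (0.75, adjusted p = 0.0165) but not by rho (0.62, adjusted p = 0.0631).

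The correlations were taken again without the 2 libraries of a table farthest from its median of Adipoq. The choice used log2(normalized count + 1) before group means were subtracted. The libraries left out in Rag1-/- hosts were knockout replicates 2 and 5, and 8 of 9 members passed (r up to 0.98). At day 4 they were wild-type replicates 2 and 4, both low in Adipoq, and 9 of 9 passed (0.81 to 0.996), with knockout replicates 2 and 4, the libraries richest in Adipoq, still included. At day 6 the libraries left out were antibody replicates 2 and 4. Of 9 members 6 passed over the remaining 6 libraries, and Fabp4 (r = 0.85, adjusted p = 0.0672), Plin4 (r = 0.84, adjusted p = 0.0735) and Car3 (r = 0.75, adjusted p = 0.101) no longer passed in the exact permutation test, against r of 0.85, 0.89 and 0.81 with all 8 libraries. Among all 45 pairs of members, the median r was 0.89 for Rag1-/- tumours, 0.96 for day 4 and 0.88 for day 6. Libraries of one table share their size-factor normalization.

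The slopes on Adipoq formed a range, with Pparg and Fabp4 lowest in each table and the others between 0.59 (Car3 at day 6) and 1.46 (Cfd in Rag1-/- tumours). Per unit of log2 Adipoq, Retn moved by 1.03, 0.92 and 0.86 and Cidec by 0.91, 0.89 and 0.84 (Rag1-/- tumours, day 4 and day 6). Fabp4 moved by 0.43, 0.48 and 0.28 and Pparg by 0.01, 0.26 and 0.22. These slopes are on log2(normalized count + 1), which flattens genes of low count, and they are given without a test.

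**Figure D2:**
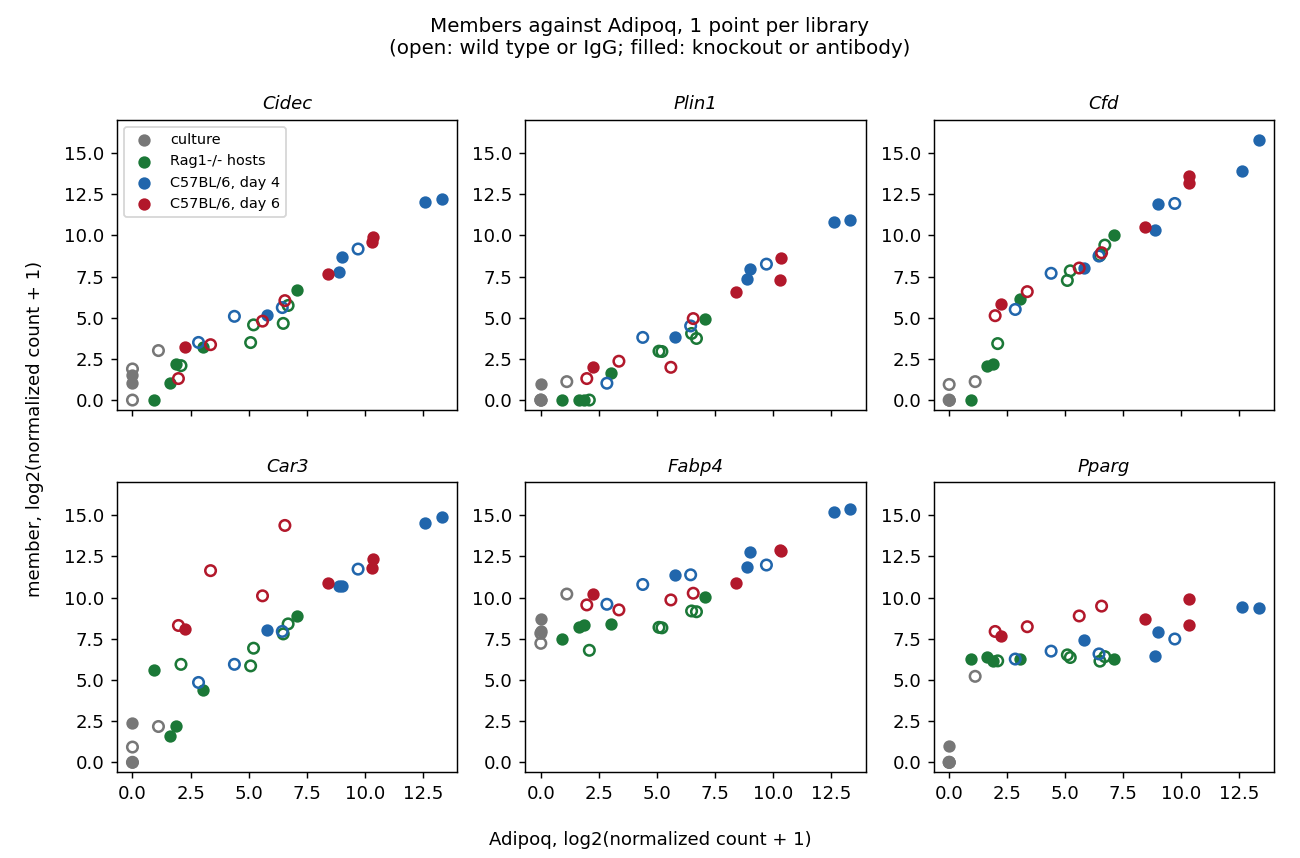
Level of 6 members (Cidec, Plin1, Cfd, Car3, Fabp4 and Pparg, 1 panel each) against Adipoq, both as log2(normalized count + 1), 1 point per library, coloured by table, open for wild type or IgG and filled for knockout or antibody. Cidec, Plin1 and Cfd rise along 1 line in the 3 tumour tables, Fabp4 and Pparg level off at low Adipoq, and 4 open day 6 points lie above the line of Car3.

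The ratio of reads to Adipoq reads within a library needs no normalization and can be set across tables. It was taken in the 13 tumour libraries with 50 or more Adipoq reads (3 of Rag1-/- tumours, 6 of day 4 and 4 of day 6), among which normalized Adipoq spanned 118-fold. Cidec held the narrowest ratio, from 0.27 to 0.80 reads per Adipoq read, a 2.94-fold range. Plin1 lay between 0.12 and 0.47, Retn between 0.16 and 0.66 and Cfd between 2.42 and 9.93, each a range of about 4-fold (3.96, 4.10 and 4.10). Lep ranged 12.6-fold, from 0.021 to 0.27, and was at its highest in antibody replicate 3 at day 6. Fabp4 had 4.24 to 30.9 reads per Adipoq read, and the highest ratio belonged to day 4 wild-type replicate 3, a library of low Adipoq. Pparg ranged 121-fold, from 0.063 in the library richest in Adipoq to 7.66 in IgG replicate 2.

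Car3, carbonic anhydrase 3, is abundant in fat and also in skeletal muscle. In 12 of the 13 libraries it had 2.49 to 5.53 reads per Adipoq read, and in the other one, IgG replicate 2 at day 6, it had 229. On day 6 Car3 had 3192, 21400, 316 and 1104 normalized counts under IgG and 273, 3621, 1879 and 5192 under the antibody. The order of the IgG libraries in Car3 was not that of Adipoq (9.28, 93.5, 2.94 and 47.5). The IgG ratios of 344, 229, 108 and 23.2 all lay above those of antibody replicates 2, 3 and 4 (2.83, 5.53 and 4.0). These IgG ratios rest on 9, 94, 2 and 48 Adipoq reads, so those of IgG replicates 1 and 3 are imprecise. The ratios of antibody replicates 2, 3 and 4 rest on 1301, 413 and 1179 Adipoq reads. Antibody replicate 1, with 5 Adipoq reads, had a ratio of 72.6.

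The skeletal muscle marker sum also differed between the day 6 libraries, and its order was not that of the ratio of Car3 to Adipoq. It stood at 34678, 200720, 4504 and 11411 with IgG and at 2019, 199, 6520 and 406 with the antibody, with 0 of its 8 genes at 0 in any day 6 library. All 8 genes were found in the table. The highest sum and the highest Car3 were in the same library, IgG replicate 2. The level of Car3 itself, unlike its ratio to Adipoq, ranked the IgG libraries as the muscle sum did. Among the antibody libraries the 2 orders differed. At day 4 the muscle sum was also high in wild-type replicate 3 (31141) and knockout replicate 5 (61281), and there the ratio of Car3 to Adipoq stayed at 2.85 and 4.78, the second from 49 Adipoq reads. In Rag1-/- hosts the muscle sum was 89.9 to 139 in 8 libraries and higher in wild-type replicate 1 (535) and knockout replicate 5 (481). Those held 60.8 and 48.6 normalized counts of Car3 beside 3.26 and 0.90 of Adipoq, ratios of 18.7 and 54 that rest on 3 reads and 1 read of Adipoq. The muscle genes themselves differed in proportion between these libraries: in day 4 knockout replicate 5 Acta1 stood at 24737, Ckm at 3320 and Myh4 at 982, and in IgG replicate 2 they stood at 51438, 32683 and 32937. Acta1 encodes the actin of skeletal muscle, Ckm its creatine kinase and Myh4 a myosin heavy chain of fast fibres. The part of muscle in the Car3 level was not tested.

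**Figure D3:**
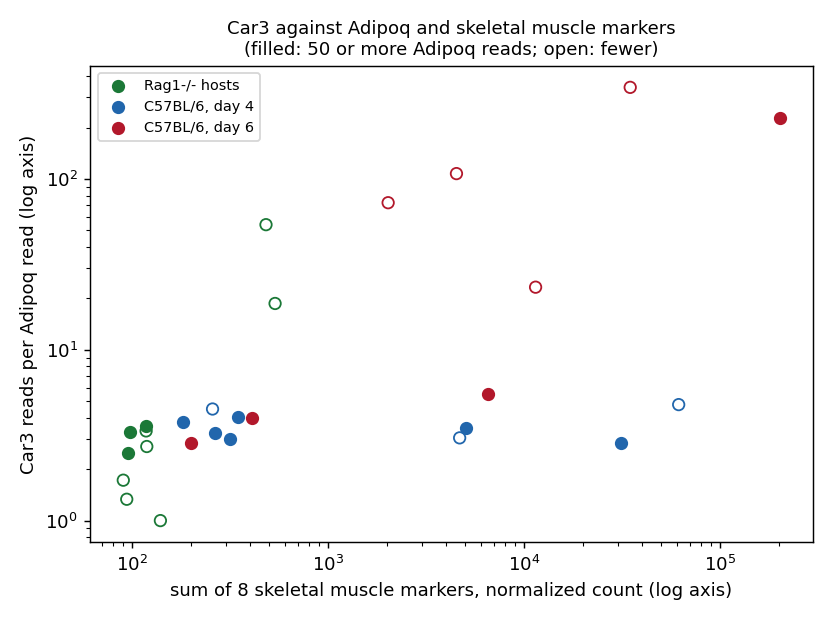
Car3 reads per Adipoq read (vertical, log axis) against the sum of 8 skeletal muscle markers in normalized counts (horizontal, log axis), 1 point per tumour library, filled where the library has 50 or more Adipoq reads and open where it has fewer. Most libraries lie near 3.50 reads per Adipoq read, the median of the 13 filled points. The 4 IgG libraries at day 6 lie between 23.2 and 344, and among them replicate 2 (229) alone is filled. The 2 day 4 libraries with high muscle sums lie at 2.85 and 4.78. Antibody replicate 1 at day 6 (72.6) also lies high, as do knockout replicate 5 (54) and wild-type replicate 1 (18.7) in Rag1-/- hosts, all 3 open points.

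The comparison of knockout with wild-type tumours in Rag1-/- hosts asked what loss of Ddr1 changed in hosts without T and B cells. Lep and Plin1 had means under 10 and were not tested, since only members above that mean enter. Of the 8 tested, 7 had lower log2 means in knockout tumours and none passed, where 22.7% of 12795 genes were called by limma. One of the 8 (Car3) had an unadjusted p under 0.05, against 36.1% of all genes, and 0 of 8 had groups that did not overlap, against 15.0% of all genes. edgeR (22.7% of genes called) and DESeq2 (24.8%) on the recovered reads called none of the 8 either. Read against these shares, the members were called no more often than genes in general. The median log2 change was −1.72 for the 8 and −0.003 for all genes, and the median SE was 1.04 against 0.076 for all genes.

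Adipoq averaged 52.9 ± 41.7 normalized counts in wild-type and 29.4 ± 58.5 in knockout tumours in Rag1-/- hosts (SD, n = 5 each). Its log2 change was −2.21 (95% interval −4.48 to 0.06, limma adjusted p = 0.149). Cfd differed by −3.27 on the log2 scale (−6.64 to 0.10, adjusted p = 0.151), Car3 by −2.44 (−4.74 to −0.15, adjusted p = 0.116), Retn by −1.96, Cidec by −1.49 and Plin4 by −1.47. Fabp4 differed by 0.20 (−0.80 to 1.19) and Pparg by −0.04 (−0.30 to 0.21, adjusted p = 0.832), so of the 8, Pparg had the narrowest interval around 0. The arithmetic means of Cidec were 22.6 ± 18.9 and 23.0 ± 44.3, and DESeq2 gave it a log2 change of 0.02, opposite in sign to limma's value. In the authors' deposited table the adjusted p-values of all 10 members lay between 0.795 and 1.

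A single library decided these calls. Without knockout replicate 2, which held the highest level of most members, limma called 6 of the 8, against 18.7% of all 12775 genes then tested: Adipoq at −3.25 (adjusted p = 0.0128), Retn at −3.08 (0.0283), Cfd at −4.75 (0.0172), Car3 at −3.54 (0.00692), Plin4 at −2.30 (0.0180) and Cidec at −2.50 (0.0326). Without any other single library none of the 8 was called. Fat precursor and loose stroma markers (the sum of Pdgfra, Dlk1, Cd34, Ly6a, Pi16, Dpp4, Dpt and Mfap5) were separate between these groups, at 17266 to 18716 in wild-type and 10377 to 12286 in knockout tumours, with none of the 8 at 0 in any library. Knockout replicate 2 stood at 12286, the highest of its group by a small margin. In culture this sum stood at 3006 to 3992. The part of stroma in the members' difference was not tested.

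At day 4 in C57BL/6 hosts, which have T and B cells, the same genotypes were compared. All 10 members had higher log2 means in knockout tumours, 2.38 to 4.15 except for Pparg, and none passed limma, where 0.0354% of 14105 genes were called. An unadjusted p under 0.05 was reached by 8 of 10, against 15.0% of all genes, and 0 of 10 had groups that did not overlap, against 5.76% of all genes. edgeR called none (0.0284% of genes), and DESeq2 called 2, Fabp4 and Pparg (4.95% of genes). The median log2 change of the 10 was 3.63 and that of all genes 0.003. The members move together across libraries, so 10 members do not make 10 separate observations of a difference.

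Adipoq averaged 238 ± 402 in wild-type (SD, n = 4) and 3507 ± 4553 in knockout tumours (SD, n = 5) at day 4. The log2 change was 4.07 (95% interval 0.31 to 7.84, limma adjusted p = 0.304), with 2 of 5 knockout libraries above all wild-type ones. Car3 differed by 4.15 (SE 1.65), Lep by 3.82 (SE 1.63), Plin1 by 3.78 (SE 1.65), Plin4 by 3.65 (SE 1.4), Retn by 3.62 (SE 1.58), Cfd by 3.50 (SE 1.61) and Cidec by 3.34 (SE 1.54), with limma adjusted p-values from 0.275 to 0.341. Fabp4, at 2319 ± 1388 and 18809 ± 19829, had the smallest p of the 10 (log2 change 2.38, SE 0.87, limma adjusted p = 0.262). In DESeq2 its log2 change was 3.02 (adjusted p = 0.0174) and that of Pparg 1.68 (adjusted p = 0.0478, limma 1.34, SE 0.58). In the authors' deposited table the adjusted p was 0.0187 for Fabp4 and 0.0400 for Pparg, and the other 8 ranged from 0.0727 to 0.210.

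Wild-type replicate 1 was the wild-type library with fat cell levels like those of the knockout group. Without it the log2 change of Adipoq was 5.36, and without any one day 4 library it ranged from 3.07 to 5.36, with no member called in any of these fits. Leaving out the 2 libraries highest in muscle markers gave 5.30 for Adipoq (adjusted p = 0.266), an alternative added after seeing the data. Skin keratinocyte markers (the sum of Krt5, Krt14, Krt1, Krt10, Lor, Dsg3 and Krtdap) separated the groups, at 16.5 to 42.2 in wild-type with 2 to 4 of the 7 at 0, and 295 to 14504 in knockout tumours with 0 to 2 at 0. The keratinocyte sum and Adipoq did not share an order within the knockout group: the sum stood at 1195, 617, 14504, 579 and 295 in replicates 1 to 5, and Adipoq was highest in replicates 2 and 4. The epithelial keratin gene Krt18 and the milk protein gene Csn3, both named after their values were seen, were also highest in replicates 2 and 4. Krt18 stood at 565, 1048, 39.5, 725 and 223 in knockout replicates 1 to 5 and at 5.15 to 24.03 in wild-type tumours. Csn3 stood at 217, 415, 2.26, 335 and 8.89 in the knockout and at 7.21 to 23.9 in the wild-type group. Both come from a list of mammary luminal and milk genes (Krt8, Krt18, Krt19, Epcam, Csn2, Csn3, Wap and Lalba). Not all of the list went that way. Epcam was highest in knockout replicate 1 (431, against 9.27 to 19.0 in wild-type tumours) and Krt8 in knockout replicate 5 (16386). Epcam was also higher in knockout than in wild-type libraries in culture (112 to 116 against 22.2 to 36.0) and in Rag1-/- hosts (40.2 to 49.4 against 6.51 to 12.6). Csn2 was at 0 throughout, and Krt19, Wap and Lalba are not given singly. The sum of the list overlapped between groups, at 10051 to 17050 in knockout and 11244 to 15115 in wild-type tumours. Krt8 made up most of that sum in each day 4 library, with 16386 of 17050 in knockout replicate 5, so the sum says little about the other genes. The part of skin, mammary epithelium, vessel or muscle tissue in the members' difference was not tested.

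**Figure D4:**
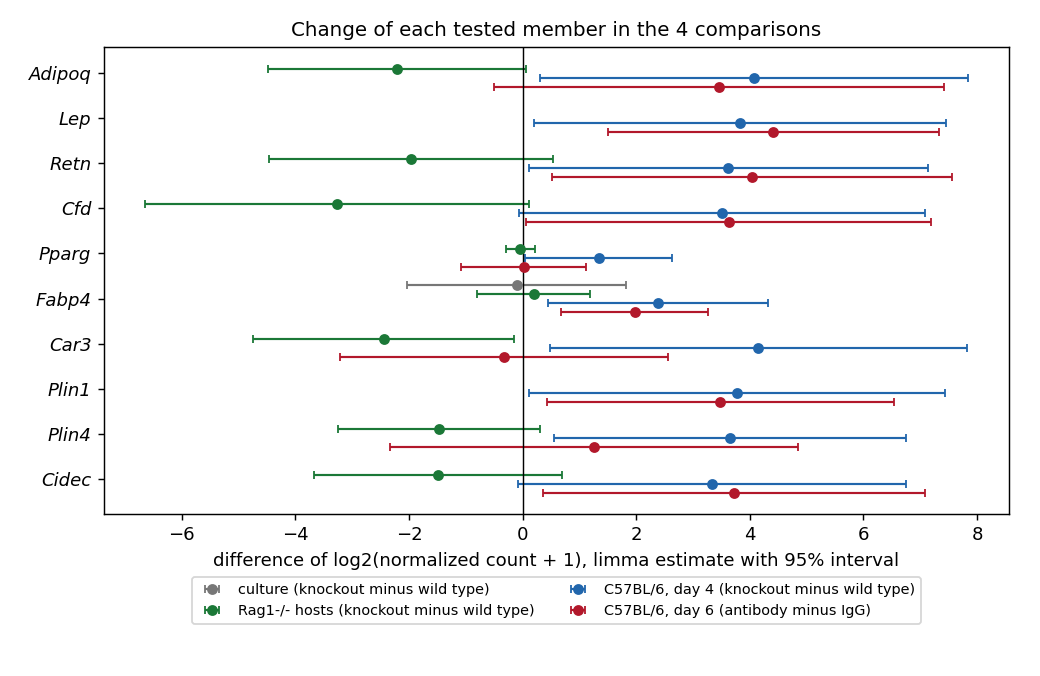
Log2 change of each tested member with its 95% interval from limma (horizontal, difference of log2(normalized count + 1)) in the 4 comparisons, 1 row per gene and 1 colour per comparison, knockout minus wild type or antibody minus IgG. All 10 day 4 points lie above 0 (1.34 to 4.15), 7 of 8 points for Rag1-/- hosts lie below 0, and at day 6 Car3 (−0.33) is the one below 0.

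The knockout differences in the 2 hosts were opposite in sign for 7 of the 8 members tested in both, and the difference between them was tested gene by gene from both fits. It was 6.28 for Adipoq (SE 2.0, adjusted p = 0.0703), 6.78 for Cfd (SE 2.25, adjusted p = 0.0835), 6.6 for Car3 (SE 1.97, adjusted p = 0.0538), 5.58 for Retn (adjusted p = 0.105), 5.12 for Plin4 (adjusted p = 0.0694) and 4.83 for Cidec (adjusted p = 0.139), as day 4 minus Rag1-/- on the log2 scale. Fabp4 (2.19, adjusted p = 0.214) and Pparg (1.38, adjusted p = 0.191) were nearer to 0. None of the 8 passed the adjustment from these limma estimates, where 4.68% of 11247 genes did, although all 8 had an unadjusted p under 0.05, as had 2256 of all genes. The call turned on single libraries: without Rag1-/- knockout replicate 2, Adipoq (7.32, adjusted p = 0.0249), Retn, Cfd, Car3 and Plin4 passed, against 4.33% of all genes. The same 5 passed without day 4 wild-type replicate 1 (4.68% of genes) or, with Cidec, without day 4 knockout replicate 5 (5.73%). Adipoq and Cfd passed without Rag1-/- wild-type replicate 1 (3.96%), and Pparg (1.80, adjusted p = 0.0339) passed without day 4 knockout replicate 3 (5.66%). The hosts also differ in their table, their normalization and the transfer of the tumours. These cannot be told apart from the Rag1 genotype or any other trait of the host.

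At day 6 the comparison asked what the DDR1 antibody changed against IgG. In 9 of 10 members the log2 mean was higher with the antibody, Car3 being the exception, and none passed limma, which called 0% of 14155 genes. An unadjusted p under 0.05 was reached by 6 of 10 (Lep, Retn, Cfd, Fabp4, Plin1 and Cidec), against 8.60% of all genes. No member had groups that did not overlap, against 3.90% of all genes, since antibody replicate 1 lay within the IgG range for 8 members and below it for Car3 and Pparg. edgeR called 0% of genes, and DESeq2 called 1.18%, among them Lep, Cfd, Fabp4 and Plin1. The median log2 change of the 10 was 3.47 and that of all genes −0.012.

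Lep averaged 0.74 ± 0.95 with IgG and 73.0 ± 63.8 with the antibody (SD, n = 4 each), with 3 of 4 antibody libraries above all IgG ones. Its log2 change was 4.42 (95% interval 1.5 to 7.33, limma adjusted p = 0.517), and in DESeq2 6.54 (adjusted p = 0.00287). Fabp4 averaged 881 ± 268 and 4489 ± 3411, and its log2 difference was 1.97 (SE 0.58; adjusted p = 0.517 in limma and 0.0324 in DESeq2). Adipoq averaged 38.3 ± 41.7 and 730.0 ± 659 (log2 change 3.46, SE 1.76, adjusted p = 0.517). Retn differed by 4.04, Cidec by 3.72, Cfd by 3.63 and Plin1 by 3.48, each with 3 of 4 antibody libraries above the IgG range, and DESeq2 gave Cfd an adjusted p of 0.0348 and Plin1 one of 0.0315. In the authors' deposited table the adjusted p was 0.00144 for Lep, 0.00274 for Fabp4 and 0.0373 for Cfd, and the other 7 ranged from 0.0909 to 0.933.

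Plin4, Pparg and Car3 had differences close to 0 beside their errors at day 6. Plin4 differed by 1.26 (SE 1.60), Pparg by 0.02 (SE 0.49) and Car3 by −0.33 (SE 1.28). Car3 turned to 1.58 without the 2 libraries highest in muscle markers (IgG replicates 1 and 2, an alternative added after seeing the data), to 0.77 without IgG replicate 2 alone and to 0.57 without antibody replicate 1. In the same fit without the muscle-rich libraries Plin4 differed by 3.18 and Adipoq by 4.04, none of them called. Pparg changed sign without IgG replicate 1 (−0.12) or 3 (−0.21) or antibody replicate 4 (−0.41). Without antibody replicate 1, the antibody library of low fat gene levels, limma called Lep (5.83, adjusted p = 0.0388) and no other member, against 0.0352% of all genes. Keratinocyte markers stood at 10.3 to 31.8 with IgG, with 2 to 4 of 7 at 0, and at 27.8, 289, 5610 and 279 with the antibody, with 0 to 3 at 0, and antibody replicate 1 was the lowest antibody library in that sum as well as in Adipoq. Csn3 stood at 0 to 4.95 with IgG and at 1.5, 565, 28.0 and 1840 with the antibody. Krt18 stood at 3.09 to 35.8 against 53.4, 1222, 65.0 and 2799. Both were highest in antibody replicates 2 and 4, as was Adipoq. Of the same list Epcam was highest in replicates 2 and 4 too (702 and 1257), Krt8 in replicates 2 and 1 (9792 and 7333), and Csn2 was at 0 throughout. The sum of the list stood at 5561 to 6209 with IgG and at 7650, 14199, 5137 and 16755 with the antibody. Krt8 was 7084 of the 16755 in antibody replicate 4, and Krt19, Wap and Lalba are not given singly. The part of these marker genes in the members' difference was not tested.

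Other genes of fat cell biology were read from lists of 66 genes for lipid droplets and lipolysis, fatty acid uptake and synthesis, the transcription of the fat cell program, brown and beige fat, receptors, and other secreted products. In Rag1-/- hosts 2 of 44 tested rose and 9 fell in knockout tumours by limma. Those that fell included Lipe, the hormone-sensitive lipase (log2 change −0.43, limma adjusted p = 0.00964), Thrsp, a promoter of lipid synthesis (−1.27, adjusted p = 0.0382), Acaca, acetyl-CoA carboxylase (−0.21, adjusted p = 0.0130), Rxra, a partner of PPARG (−0.36, adjusted p = 0.00332), and Zfp423, a factor of preadipocyte commitment (−0.83, adjusted p = 0.0038). Nr1h3, Adipor2, Cdh13 and Orm1 fell by 0.19, 0.16, 0.28 and 0.67. Rbp4, which encodes the retinol carrier of plasma, rose by 0.90 (adjusted p = 0.00125) and Abhd5, the activator of the triglyceride lipase, by 0.19 (adjusted p = 0.0453). With 11 of 44 called against 22.7% of all genes, the lists stood near the background, and the median log2 change was −0.096.

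At day 4 none of 59 list genes rose or fell by limma, with 14 at an unadjusted p under 0.05 (15.0% of all genes), 0 called by edgeR and 4 by DESeq2 (4.95% of all genes). The median log2 change was 0.63, and 44 of 59 lay above 0. Examples chosen after their values were seen were Mgll, monoacylglycerol lipase, at 444 and 1764 on average (log2 change 1.64, adjusted p = 0.208), and Lpl, lipoprotein lipase, at 2675 and 8353 (1.46, adjusted p = 0.252). At day 6 none of 57 rose or fell by limma, with 13 at an unadjusted p under 0.05 (8.60% of all genes), 0 called by edgeR and 8 by DESeq2 (1.18% of all genes), and the median was 0.19. Thrsp, also chosen after its values were seen, stood there at 22.0 and 307 on average (log2 change 3.37, adjusted p = 0.517). In culture none of the 35 tested list genes passed by limma or by edgeR (0.210% of all genes), 6 had an unadjusted p under 0.05 (18.8% of all genes) and DESeq2 called 4 (8.86% of all genes). Ucp1, the uncoupling protein of brown fat, did not exceed 8.47 normalized counts in any library.

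Some list genes followed the mean of the members across libraries with r over 0.9, namely 3 of 44 in Rag1-/- tumours, 15 of 59 on day 4 and 8 of 57 on day 6, where the same held for 0.133%, 1.2% and 1.36% of all genes. Pck1, which feeds glycerol synthesis in fat, passed in all 3 tables (0.98, 0.97 and 0.98). Gpd1 passed in Rag1-/- hosts and at day 4, and Adrb3, Dgat2, Klf15, Lgals12 and Thrsp at day 4 and day 6. Across all 11198 genes measured in the 3 tables, the 10 most like the members by the lowest of the 3 correlations were Pck1, Cyp2e1, Ghr, Cdo1, Scn7a, Hp, Gpd1, Phyh, Abcd2 and Lrg1, with lowest r from 0.81 to 0.97. Cyp2e1 (0.97, 0.95 and 0.98) encodes a cytochrome P450, Ghr (0.92, 0.93 and 0.93) the growth hormone receptor and Hp (0.98, 0.97 and 0.85) haptoglobin. In culture Pck1 was at 0 in all 5 libraries and Scn7a likewise, while Phyh stood at 147 to 349 and Ghr at 45.4 to 102.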

How the data were processed

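RNA of E0771 cells in culture and of E0771 tumours was measured in 32 libraries. Per the labels' protocols, about 500 ng of RNA entered each library, which used the stranded mRNA TruSeq kit of Illumina. Per the submitters' processing notes the tools were CASAVA, TopHat, DESeq2 and the build was mm10, without versions, and the counting tool is not given in the sources used here. The authors deposited 4 tables, 1 per comparison, of normalized counts (signal values, reads divided by a size factor per library). Their p-values and adjusted p-values stand in the same deposited tables, and 18 further value columns were not used. Dividing each column by its step gave whole reads (tolerance 0.01) in 100% of cases in every library.

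Each table was fitted alone. Genes whose mean reached 10 entered as log2(normalized count + 1) into limma (version 3.58.1, under R 4.3.3) with its trend option. The p-values are two-sided and Benjamini-Hochberg adjusted over all genes tested, and an adjusted p under 0.05 was called. A fold change on this scale understates that of weakly expressed genes. Other settings tried were a pseudocount of 0.5 or 5, a minimum mean of 50 or none, scaling by upper quartile or by quantiles, and no trend. Recovered reads were also fitted with DESeq2 1.42.0 and edgeR 4.0.16, and further fits had a replicate block or lacked 1 library. The test code was tried on simulated counts. Correlations used 100000 permutations at n = 10 and all permutations below that. Members and gene lists were chosen with earlier results of these data known. Besides the members, the genes named were the 10 of highest lowest correlation with the members' mean over the 3 tumour tables, and up to 3 list genes of smallest p per list where any passed. Mgll, Lpl, Thrsp, Ucp1, Csn3, Krt18, Adrb3, Dgat2, Klf15 and Lgals12 were named after their values were seen. Positions are from GENCODE on GRCm38, and promoters from RefSeq on GRCm38.p6.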

Additional observations from a re-analysis of the deposited data

Results flagged for a closer look

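Within the groups of 4 or 5 tumours, 60 combinations of a member and a group were checked for a library far from the others, and 1 stood out, where chance gives about 1 in 20. Plin1 was at 0.0 normalized counts in wild-type replicate 1 in Rag1-/- hosts. The nearest wild-type library stood at 6.72, and the gap was 0.729 of the range of the group, above the critical value of 0.710. That library also had the lowest Adipoq of its group (3.26, from 3 reads).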

How the results depend on the processing

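Fits with DESeq2 moved the counts of called genes to 1055 in culture, 689 at day 4 and 166 at day 6 from 39, 5 and 0, with 2 members called at day 4 and 4 at day 6. In culture limma without the trend called 12 genes and edgeR 25. At day 4 there were 9 calls with no filter and 15 without the 2 libraries highest in muscle markers. The replicate block gave 1 call at day 4, and with it no member passed in any tumour table. Samples with the same number deviated together little in Rag1-/- tumours (r between −0.204 and 0.146) and at day 4 (−0.174 to 0.144). At day 6 r was 0.446 and 0.346 for numbers 1 and 4, and −0.198 and −0.195 for numbers 2 and 3. The numbers are not read as pairs, though the day 6 values do not settle this. Culture columns give no shared numbers. Leaving out 1 library gave 2 to 1655 calls in culture (1655 without the parental line, 2 without the empty-vector line, 7 without the control line, 8 and 4 without a knockout line), 3 to 50 at day 4 (50 without knockout replicate 5, 13 without wild-type replicate 1, 11 without knockout replicate 3 and 3 without wild-type replicate 2, 3 or 4), 0 to 5 at day 6 (5 without antibody replicate 1), and 265 to 714 for the difference between hosts (265, 282 and 343 without day 4 wild-type replicate 2 or 4 or knockout replicate 2), from 526. Members called ranged from 0 to 6 in Rag1-/- hosts and 0 to 1 at day 6. Directions turned in DESeq2 for Cidec in Rag1-/- hosts (0.023) and without the muscle-rich libraries for Car3 at day 6 (1.575). With 1 library left out, log2 changes that crossed 0 ranged from −0.707 to 0.789 for Fabp4 in culture, −0.196 to 0.454 for Fabp4 and −0.088 to 0.008 for Pparg in Rag1-/- hosts, and −0.405 to 0.351 for Pparg and −1.260 to 0.765 for Car3 at day 6. Without group means subtracted, the day 6 correlations of Pparg (r = 0.68) and Car3 (r = 0.63) with Adipoq no longer passed the exact permutation test (adjusted p = 0.0741 and 0.101). Per length of the exons of protein-coding transcripts alone, a choice made after seeing the data, Fabp4 was the highest member in 9, 8 and 4 libraries (Rag1-/- tumours, day 4 and day 6), against 4, 4 and 2 with the exons of all transcripts, because its exon length fell from 4489 to 896 bases. The cause of the other shifts was not tested. Depth limits the sparse members, among them Adipoq, which had under 50 reads in 14 of the 27 tumour libraries.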
